A study of Mus musculus with 12 samples.

Results

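The genes described here are the cytochrome P450 (P450) genes of the mouse in a study of myeloid *Tshr* deficiency, the loss of the thyrotropin receptor from macrophages and related cells. They were taken as every listed gene whose symbol begins with Cyp and a digit, without the names that mark pseudogenes (-ps). In this way 101 genes were chosen of 55335 listed, 33 names with -ps were left out, and no symbol of the set was listed more than once. The set comprised 49 Cyp2 genes, 21 Cyp4, 9 Cyp3, 3 Cyp1, 7 genes of sterol and bile acid metabolism, 6 of steroid hormone synthesis, 5 of vitamin D and retinoid metabolism, and *Cyp20a1*. All 101 had a record in GENCODE M21 (GRCm38), and all but the antisense RNA *Cyp4x1os* were annotated as protein coding.

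P450 enzymes are haem proteins that insert an oxygen atom into lipids, steroids, bile acids and foreign compounds. Most lie in the endoplasmic reticulum and take electrons from the reductase encoded by *Por*, and a smaller group in mitochondria is fed through *Fdxr* and *Fdx1*. The hepatocyte carries most of the P450 load of the body, much of it in cells near the central vein, and its genes answer to the nuclear receptors CAR, PXR and PPARα, to the sex-dependent pulses of growth hormone, and to inflammation, during which many of them are known to be repressed.

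Libraries came from bone-marrow-derived macrophages (BMDMs) and livers of *Tshr MKO* mice, which carry loxP-flanked *Tshr* and Cre under the myeloid *Lyz2* promoter, and of their *Tshr f/f* littermates, which carry the same floxed alleles without Cre, with n = 3 libraries per group and 12 in all (f/f and MKO BMDMs and livers). BMDMs came from male mice of 6 weeks, were grown for 7 days with M-CSF at 10 ng/mL and were then given thyrotropin (TSH) at 1 ng/mL for 24 h, so both genotypes had TSH. Livers came from males put on a high-fat diet (HFD) for 9 weeks from 6 weeks of age, fasted for 8 h and given insulin at 1.5 U/kg for 5 min before they were killed, again in both genotypes. *Lyz2*-Cre acts in the myeloid cells of a liver and not by design in its hepatocytes. RNA was taken from 3 mice per group, as many as there are libraries.

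The deposited values were read counts per gene, with 28962878–40420513 counts per liver library and 33683981–40954211 per BMDM library. P450 genes held 2.01–2.38% of the counts of a liver and 0.0439–0.0608% of those of a BMDM library. *Tshr* had 0 counts in all 6 livers and at most 5 in BMDMs, so these counts give no check of the genotype. In the study's own listing of receptor genes the liver values of these libraries stand under the opposite group headings, so livers are called here by their labels. *Egr1*, *Lcn2* and *Socs3* were also assayed by qRT-PCR and western blotting in livers of these genotypes, and the study reported each as lower in *Tshr MKO* livers. The study had picked these genes among those lower in *Tshr MKO* livers in its own sequencing. Their direction by label is therefore no independent check of the labels. By label, *Egr1* was at 35.0, 36.4 and 28.8 CPM in the *Tshr f/f* group and at 11.04, 15.3 and 16.5 CPM in the *Tshr MKO* group without overlap (log2 fold change -1.23), and *Lcn2* and *Socs3* had log2 fold changes of -2.94 and -1.40 with overlap. Defining hepatocyte markers were high in livers (*Alb*, 45575–69735 CPM, read counts scaled to a common library size with TMM factors) and *Alb* was at 0 in every BMDM library, whereas *Lyz2* in BMDMs was 8773–22320.1 CPM. Among livers the first *Tshr f/f* library stood apart, with 41894 CPM summed over 7 acute-phase genes against 5158–13632 CPM in the other 5.

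A filter on low counts kept 66 of the 101 genes for the test in liver and 21 in BMDMs. Of the 35 not tested in liver, 17 had no count in any liver, 6 had at most 3 counts and 12 reached up to 38 counts in some liver. In BMDMs 65 of the 80 untested genes had no count, 5 had at most 3, and 10 reached up to 41. The 2 sets shared 18 genes, 32 genes were tested in neither, and 15 had no count in any of the 12 libraries, among them *Cyp19a1* (aromatase) and *Cyp24a1* (the enzyme that inactivates vitamin D). At these depths 3 counts corresponded to 0.0742–0.104 CPM in a liver and 0.0733–0.0891 CPM in a BMDM library, limits that cover counting error only.

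Level per kilobase of exon set *Cyp2e1* far above the others in liver. *Cyp2e1*, which oxidises ethanol and acetone, averaged 4312 CPM per kb over the 6 livers, followed by the fatty acid ω-hydroxylase genes *Cyp4a14* (830.2 CPM per kb) and *Cyp4a10* (652 CPM per kb). The next were *Cyp2d26*, *Cyp2d9*, *Cyp2d10*, *Cyp2f2*, *Cyp27a1*, *Cyp2j5*, *Cyp8b1*, *Cyp1a2* and *Cyp2c50*, between 406 and 120.0 CPM per kb. In BMDMs the order was a different one, led by *Cyp4v3* (52.2 CPM per kb), *Cyp1b1* (22) and *Cyp27a1* (11.1), and the summed CPM of Cyp3, Cyp2a and Cyp4a genes was 0 in all 6 BMDM libraries.

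In liver, P450 genes were more often higher than lower in the livers labelled *Tshr MKO*. A positive log2 fold change was found for 45 of the 66 tested genes (68.2%), where it was 49.1% over all 15062 genes tested, and the median was 0.24 against -0.0064 over all genes. With edgeR quasi-likelihood tests and Benjamini–Hochberg adjustment over all genes, 0 of 66 had an adjusted p under 0.05, as did 0% of all genes. At an unadjusted p under 0.05, 14 P450 genes were higher (21.2%), against 5.27% of all genes, and 3 were lower (4.55%), against 5.18% of all genes. With a fold change of at least 2 in addition, which are the limits the study used, 3 were higher (*Cyp21a1*, *Cyp2a22* and *Cyp46a1*, 4.55% against 0.69% of all genes) and 0 were lower (0.856% of all genes). The 3 livers of each label did not overlap for 15 of the 66 genes, 13 higher (19.7%, against 9.6% of all genes) and 2 lower (3.03%, against 7.74%). DESeq2 put 6 genes at an adjusted p under 0.05, namely *Cyp4a12b*, *Cyp4v3*, *Cyp2j6*, *Cyp46a1*, *Cyp2c40* and *Cyp2c67*, each higher (9.84% of 61 with an adjusted p, against 1.81% of all genes). Without the second *Tshr f/f* liver 22 genes were higher at an unadjusted p under 0.05 (32.4%, against 6.35% of all genes in that fit), and in the other leave-one-out fits 10 to 15. In those other fits 1077 of 15552 to 1643 of 15624 of all genes passed in either direction.

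**Figure D1:**
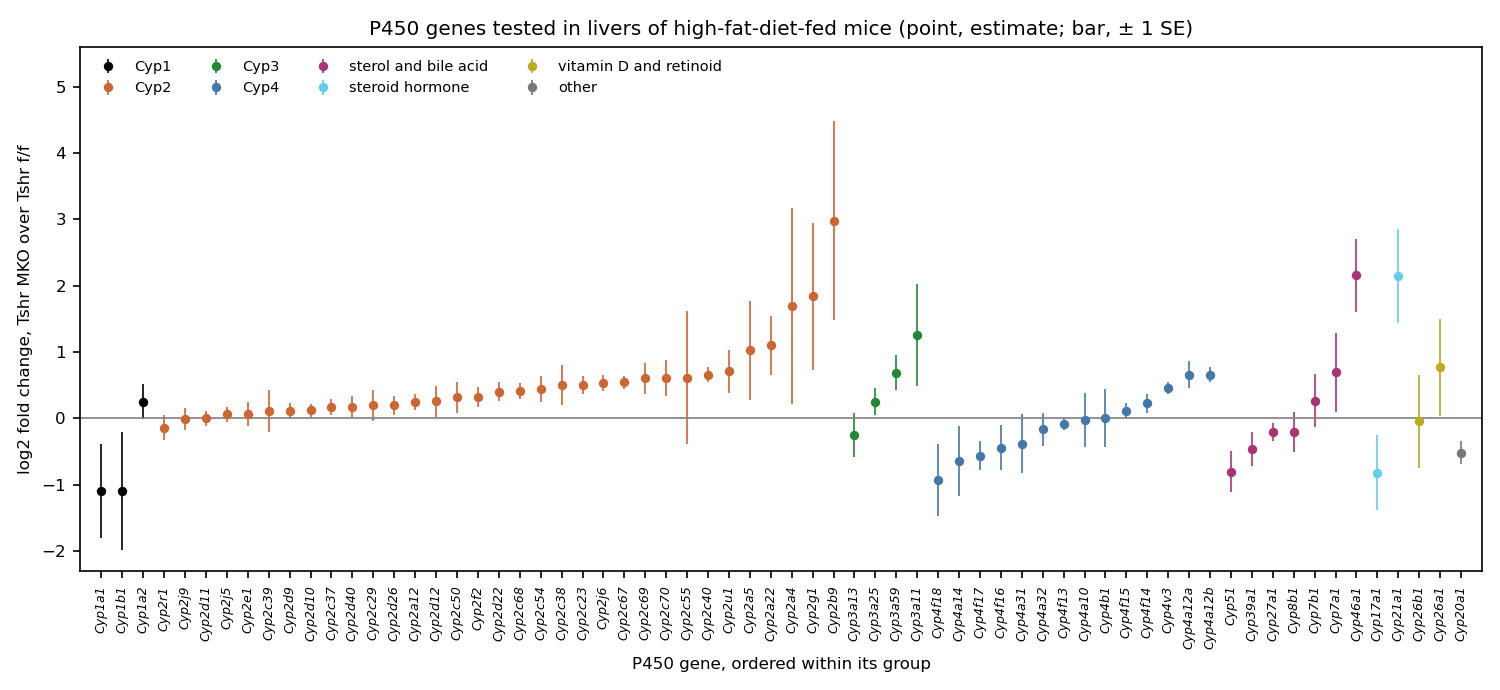
Log2 fold change of the 66 tested P450 genes in liver (vertical axis, livers labelled *Tshr MKO* over *Tshr f/f*, n = 3 each) with bars of ± 1 SE, ordered and coloured by P450 group (horizontal axis). Of the 33 tested Cyp2 genes 30 lie above 0, whereas 6 of 14 Cyp4 genes do, and the widest bars belong to genes of low level such as *Cyp2b9* and *Cyp2a4*.

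The Cyp2c genes, whose enzymes epoxidise arachidonic acid and hydroxylate many drugs, all lay in the same direction. They lie on chromosome 19, in a cluster at 39007019–40187333 but for *Cyp2c23*, which lies apart at 44005022–44029208. Of 15 genes 13 were tested, and all 13 had a positive log2 fold change, from 0.11 to 0.66 (median 0.50). Of these 13, 5 were higher at an unadjusted p under 0.05, against 5.27% of all genes. The same 5 (*Cyp2c23*, *Cyp2c40*, *Cyp2c67*, *Cyp2c68* and *Cyp2c69*) had groups that did not overlap, where 9.6% of all genes were higher without overlap. Of the remaining pair, *Cyp2c65* had 2 counts in a single liver and *Cyp2c66* had none. Leaving out each liver in turn kept 13 of 13 positive in 5 of the 6 fits and 12 of 13 without the first *Tshr MKO* liver, where the median was 0.29.

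*Cyp2c40* was close to constant in the *Tshr f/f* livers, at 13.1, 13.1 and 13.4 CPM, and stood at 22.6, 22 and 17.7 CPM in those labelled *Tshr MKO* (log2 fold change 0.66, SE 0.12, adjusted p = 0.303, edgeR). *Cyp2c67* had 137, 149 and 155 CPM in *Tshr f/f* livers and 210.2, 231 and 203 CPM in the others (log2 fold change 0.55, SE 0.10, adjusted p = 0.303). For both genes the lowest liver labelled *Tshr MKO* lay above the highest *Tshr f/f* liver, by more than the spread within the *Tshr f/f* group. *Cyp2c68* went from 92.6, 96.6 and 103 CPM to 150.2, 126 and 113 CPM (log2 fold change 0.41, SE 0.12, adjusted p = 0.349), and the low *Cyp2c69* from 2.33, 3.12 and 3.22 to 5.09, 4.48 and 3.61 CPM (log2 fold change 0.60, SE 0.24, adjusted p = 0.44). *Cyp2c23*, an epoxygenase that lies apart from these genes in sequence and on the chromosome, had 121, 169 and 155 CPM in *Tshr f/f* livers and a narrow 209.5, 214 and 210.4 CPM in the livers labelled *Tshr MKO* (log2 fold change 0.51, SE 0.13, adjusted p = 0.334). Without the second *Tshr f/f* liver 8 of 13 Cyp2c genes were higher at an unadjusted p under 0.05, against 6.35% of all genes in that fit. Without the first or the third, or the first *Tshr MKO* liver, 4 of 13 were. In these 3 fits 1643 of 15624, 1127 of 15521 and 1078 of 15383 genes passed in either direction. With each liver left out, *Cyp2c40*, *Cyp2c67*, *Cyp2c68* and *Cyp2c23* were at an unadjusted p under 0.05 in 6 of 6 fits and *Cyp2c69* in 1 of 6.

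**Figure D2:**
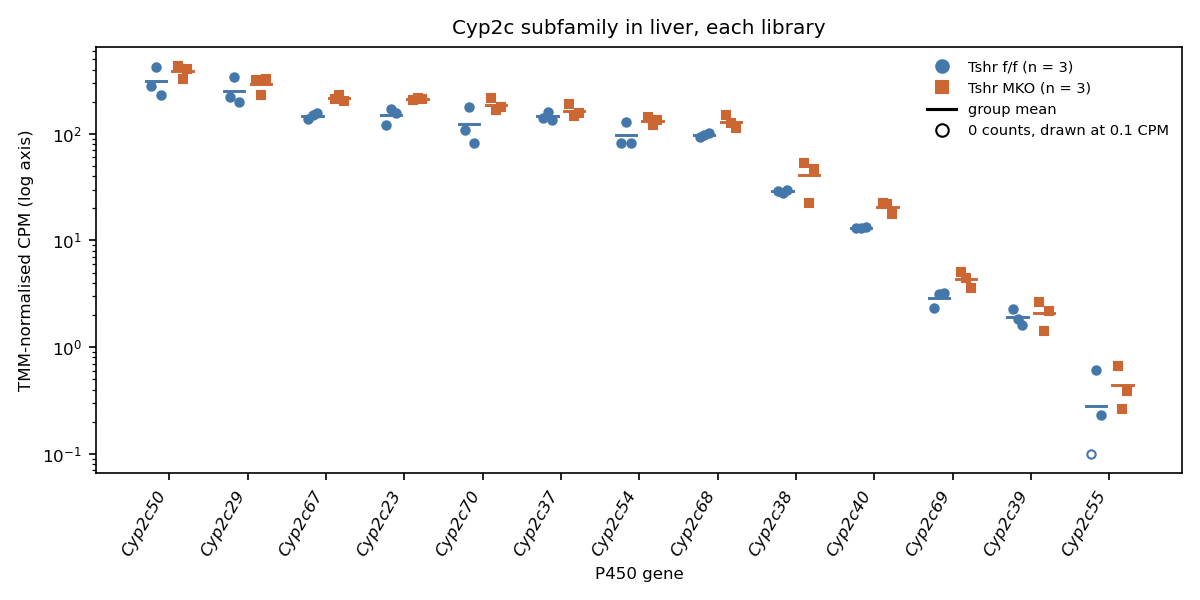
TMM-normalised CPM (vertical log axis) of the 13 tested Cyp2c genes (horizontal axis) in each liver, with a line at each group mean. The 3 livers labelled *Tshr MKO* (squares) lie above the 3 *Tshr f/f* livers (circles) for *Cyp2c67*, *Cyp2c23*, *Cyp2c68*, *Cyp2c40* and *Cyp2c69*, and overlap with them for the other 8 genes.

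Of the 5, *Cyp2c40*, *Cyp2c67*, *Cyp2c68* and *Cyp2c69* are near copies of each other, and their transcripts share 45.9%, 36.0%, 28.5% and 42.6% of their stretches of 75 bases with other genes, so that their counts may be split or summed in ways that depend on the counting. They are listed on the minus strand at 39767071–39812814 (*Cyp2c40*), 39608842–39649051 (*Cyp2c67*), 39688834–39741054 (*Cyp2c68*) and 39842814–39886799 (*Cyp2c69*) of chromosome 19 (GRCm38). Their promoters, 250 bases before to 50 bases after the start, are shown because these genes lay in the same direction and the letters show how alike the copies are. They are RefSeq sequences of GRCm38.p6, minus strand, from chr19:39812765-39813064, chr19:39648993-39649292, chr19:39741052-39741351 and chr19:39886720-39887019 in the same order, with capitals for the longest run of letters (26 bases) that all 4 hold.
Cyp2c40: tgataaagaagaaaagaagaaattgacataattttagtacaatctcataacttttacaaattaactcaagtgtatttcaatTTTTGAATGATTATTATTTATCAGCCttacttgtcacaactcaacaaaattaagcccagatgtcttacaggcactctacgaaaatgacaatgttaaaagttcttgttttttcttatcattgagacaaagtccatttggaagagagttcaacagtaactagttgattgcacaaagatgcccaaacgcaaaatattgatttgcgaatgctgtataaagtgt
Cyp2c67: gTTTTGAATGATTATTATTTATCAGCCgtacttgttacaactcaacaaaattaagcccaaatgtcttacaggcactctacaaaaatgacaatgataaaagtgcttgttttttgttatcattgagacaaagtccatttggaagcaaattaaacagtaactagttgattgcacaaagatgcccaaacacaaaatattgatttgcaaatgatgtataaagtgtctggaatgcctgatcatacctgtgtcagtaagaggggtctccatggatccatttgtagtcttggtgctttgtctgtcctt
Cyp2c68: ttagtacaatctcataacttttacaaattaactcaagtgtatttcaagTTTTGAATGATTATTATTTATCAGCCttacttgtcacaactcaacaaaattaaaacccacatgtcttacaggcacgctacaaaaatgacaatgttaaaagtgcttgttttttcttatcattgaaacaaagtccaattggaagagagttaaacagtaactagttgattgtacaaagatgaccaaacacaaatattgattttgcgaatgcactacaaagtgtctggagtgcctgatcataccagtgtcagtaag
Cyp2c69: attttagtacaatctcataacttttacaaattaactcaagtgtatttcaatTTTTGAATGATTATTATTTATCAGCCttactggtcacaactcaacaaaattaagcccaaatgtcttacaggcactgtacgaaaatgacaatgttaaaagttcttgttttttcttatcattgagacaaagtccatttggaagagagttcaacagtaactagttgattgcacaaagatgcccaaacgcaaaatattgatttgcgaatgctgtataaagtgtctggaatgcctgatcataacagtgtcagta
Over their aligned stretches the promoters of *Cyp2c40* and *Cyp2c69* were identical at 98.9% of positions, and the other pairs at 90.6–93.6%.

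The other Cyp2 genes in liver were mostly a little higher in the livers labelled *Tshr MKO*, and few passed an unadjusted p of 0.05. Over the whole Cyp2 group, 33 of 49 genes were tested and 30 had a positive log2 fold change (median 0.40). At an unadjusted p under 0.05, 8 of the 33 were higher and 0 lower, against 5.27% and 5.18% of all genes. *Cyp2j6*, an epoxygenase of arachidonic acid, had 52.4, 49.5 and 40.6 CPM in *Tshr f/f* livers and 73.8, 64.6 and 68.2 CPM in the others, with no overlap (log2 fold change 0.54, SE 0.12, adjusted p = 0.316). Its more abundant relative *Cyp2j5* hardly differed, at 494 ± 32.7 against 515 ± 43.7 CPM (SD, n = 3). *Cyp2d22* showed a smaller difference without overlap, 154, 204 and 151 CPM against 246, 217 and 210.1 CPM (log2 fold change 0.40, SE 0.15, adjusted p = 0.425), at an unadjusted p under 0.05 in 2 of 6 leave-one-out fits, where *Cyp2j6* was in 6 of 6.

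The most abundant Cyp2 genes differed little. *Cyp2e1* averaged 9097 ± 1494 against 9513 ± 1267 CPM (SD, n = 3), a difference well within the spread between livers. *Cyp2d9*, a testosterone hydroxylase typical of male liver, averaged 976 ± 63.4 against 1057 ± 88.2 CPM (SD, n = 3), and *Cyp2d26* 677 ± 47.5 against 777 ± 119 CPM (SD, n = 3). *Cyp2d10* had groups that did not overlap, 527, 542 and 548 CPM and 581, 573 and 604 CPM, for a log2 fold change of only 0.12 (SE 0.10), and it shares 22.3% of its 75-base stretches with other genes. *Cyp2f2*, the naphthalene-oxidising enzyme of the periportal zone, averaged 507 ± 57.8 against 634 ± 99.2 CPM (SD, n = 3). None of these 5 was at an unadjusted p under 0.05, though *Cyp2f2* was without the third *Tshr f/f* liver (0.0475) or the first liver labelled *Tshr MKO* (0.0321).

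The Cyp2a genes had wide spreads. All 4 had positive log2 fold changes (0.24 to 1.69), and *Cyp2a22*, at 2.5, 3.72 and 2.22 CPM against 7.43, 2.67 and 8.11 CPM, was the only member of the subfamily at an unadjusted p under 0.05, with overlapping groups (log2 fold change 1.10, SE 0.44, adjusted p = 0.46). In 4 of the 6 leave-one-out fits its unadjusted p was over 0.05, with log2 fold changes of 0.84 to 1.45 over the 6. Of the 5 Cyp2b genes 1 was tested, *Cyp2b9*, whose 0.406, 2.48 and 0.133 CPM and 21.5, 0.571 and 2.34 CPM were dominated by the first liver labelled *Tshr MKO*. *Cyp2b10*, the classical CAR target, had 0, 15 and 5 counts in *Tshr f/f* livers and 13, 7 and 8 counts in the others, too few to be tested.

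Cyp3 genes, of which *Cyp3a11* is the main PXR-inducible drug-metabolising enzyme of mouse liver, had 4 of 9 members tested, 3 with a positive log2 fold change. *Cyp3a11* had 102.5, 417 and 43.4 CPM in *Tshr f/f* livers and 561, 321 and 459.9 CPM in the livers labelled *Tshr MKO* (log2 fold change 1.25, SE 0.77, adjusted p = 0.616). The first and the third *Tshr f/f* livers were low and the second lay among the other group, so the groups overlapped. Without that second liver the log2 fold change was 2.61 and the unadjusted p 0.000987, and without the third it was 0.77. The sample IDs begin with A for the first pair of *Tshr f/f* livers and the third liver labelled *Tshr MKO* and with B for the other 3, letters that the labels do not explain, and with the letter in the fit the log2 fold change was 2.08 (unadjusted p 0.0695). *Cyp3a59* was at an unadjusted p under 0.05 with overlapping groups, 7.61, 6.51 and 4.58 CPM against 11.4, 7.02 and 11.8 CPM (log2 fold change 0.69, SE 0.27, adjusted p = 0.44), and it kept that p in 2 of 6 leave-one-out fits. *Cyp3a25* averaged 213 ± 23.1 against 254 ± 67.3 CPM (SD, n = 3) and *Cyp3a13* 226 ± 93.2 against 189.5 ± 58.6 CPM (SD, n = 3). *Cyp3a41a* shares 95.3% of its 75-base stretches with other genes, and it and its near copy stayed below the filter.

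Cyp4 genes encode ω-hydroxylases of fatty acids and eicosanoids, and in liver their directions were mixed. Of 21 genes 14 were tested, 6 with a positive and 8 with a negative log2 fold change (median -0.051). At an unadjusted p under 0.05, 3 of the 14 were higher and 1 lower, against 5.27% and 5.18% of all genes. The 3 that were higher were *Cyp4a12a*, *Cyp4a12b* and *Cyp4v3*. *Cyp4a12a* and *Cyp4a12b*, neighbouring genes on the plus strand of chromosome 4 (115299046–115332815 and 115411624–115439034) that make the arachidonic acid hydroxylase induced by androgen, share 40.8% and 41.3% of their 75-base stretches with each other, so the difference between them is uncertain. *Cyp4a12b* had 93.2, 84.6 and 107.3 CPM in *Tshr f/f* livers and 157, 144 and 149 CPM in those labelled *Tshr MKO* (log2 fold change 0.66, SE 0.11, adjusted p = 0.303). *Cyp4a12a* had 119, 172 and 189.9 CPM and 221, 232 and 306 CPM (log2 fold change 0.66, SE 0.21, adjusted p = 0.375). In both genes the groups did not overlap, *Cyp4a12b* was at an unadjusted p under 0.05 in 6 of 6 leave-one-out fits and *Cyp4a12a* in 5 of 6 (unadjusted p 0.0542 without the third liver labelled *Tshr MKO*), and the smallest p of all tested P450 genes in liver was that of *Cyp4a12b*.

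*Cyp4v3* (ENSMUSG00000079057, chromosome 8, 45304944–45333216, minus strand), a hydroxylase of medium-chain and polyunsaturated fatty acids whose human counterpart is mutated in a crystalline retinal dystrophy, was tight within each group. It had 251, 259 and 238 CPM in *Tshr f/f* livers and 329, 357 and 342 CPM in the livers labelled *Tshr MKO*, with no overlap (log2 fold change 0.46, SE 0.10, adjusted p = 0.315). With each liver left out in turn its log2 fold change was 0.42 to 0.48, at an unadjusted p under 0.05 in 6 of 6 fits.

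The Cyp4a genes that PPARα induces varied from liver to liver far more than between labels. *Cyp4a14* had 2088, 969.9 and 4843 CPM in *Tshr f/f* livers and 1414, 1727 and 1914 CPM in the others (log2 fold change -0.64, SE 0.53, adjusted p = 0.727). *Cyp4a10* had 1169.9, 703 and 2281 CPM and 1091, 1499 and 1500.2 CPM (log2 fold change -0.022, SE 0.41, adjusted p = 0.991). The third *Tshr f/f* liver was the highest and the second the lowest of all 6 in both genes. Without the third, the log2 fold changes of *Cyp4a14* and *Cyp4a10* were 0.14 and 0.54, and without the second that of *Cyp4a14* was -1.05 at an unadjusted p of 0.0249. The 4 genes of this list (with *Cyp4a31* and *Cyp4a32*) had negative log2 fold changes with a median of -0.28, and 4 of 4 were positive (median 0.15) without the third *Tshr f/f* liver.

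The Cyp4f genes, which inactivate leukotrienes and other eicosanoids, had 6 of 9 members tested in liver, 2 with a positive log2 fold change. *Cyp4f17* was at an unadjusted p under 0.05 and was lower in the livers labelled *Tshr MKO*, 23.7, 14.2 and 24.2 CPM against 16, 13.4 and 12.6 CPM, with overlap (log2 fold change -0.56, SE 0.22, adjusted p = 0.44), and with each liver left out it had such a p in 2 of 6 fits. *Cyp4f18*, known from neutrophils and other myeloid cells, was scarce, at 0.711, 0.689 and 0.929 CPM and 0.559, 0.49998 and 0.142 CPM, without overlap (log2 fold change -0.93, SE 0.54, adjusted p = 0.591). With the letter of the sample ID in the fit it was -1.42 at an unadjusted p of 0.0392. Fewer cells of a type and less RNA per cell cannot be told apart in such bulk samples. Beside it, 5 neutrophil markers summed to 50.3, 18.4 and 4.45 CPM in *Tshr f/f* livers and 6.17, 10.6 and 12.3 CPM in the others, with overlap, and *Ly6g* was at or near 0, and the part of such cells in the *Cyp4f18* values was not tested.

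Cyp1 genes, the targets of the aryl hydrocarbon receptor (AHR), did not pass an unadjusted p of 0.05 in liver. *Cyp1a2*, which oxidises caffeine and aromatic amines and is abundant in hepatocytes, averaged 274 ± 101.6 against 327 ± 23.7 CPM (SD, n = 3), with a log2 fold change of 0.25 and of 0.57 (unadjusted p 0.0163) without the second *Tshr f/f* liver. Its relatives were scarce, *Cyp1a1* at 0.44, 0.524 and 0.829 CPM against 0.0559, 0.452 and 0.319 CPM and *Cyp1b1* at 0.237, 1.02 and 1.29 CPM against 0.0559, 0.476 and 0.673 CPM, both with overlap.

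Of the 7 genes of sterol and bile acid metabolism, all tested in liver, 3 had a positive and 4 a negative log2 fold change (median -0.20). At an unadjusted p under 0.05, 1 of the 7 was higher and 1 lower, against 5.27% and 5.18% of all genes. *Cyp7a1*, the rate-limiting enzyme of the classical route from cholesterol to bile acids, ranged widely, at 71.6, 91.4 and 117 CPM in *Tshr f/f* livers and 253, 161 and 39.6 CPM in the livers labelled *Tshr MKO* (log2 fold change 0.69, SE 0.60, adjusted p = 0.735). The livers labelled *Tshr MKO* held both the highest and the lowest value, and without the lowest, the third, the log2 fold change was 1.15 at an unadjusted p of 0.00592. With the letter of the sample ID in the fit it was -0.10, and *Cyp8b1* was then at -0.44 (unadjusted p 0.0445). *Cyp8b1*, which sets the share of cholic acid, averaged 429 ± 143 against 372 ± 99.5 CPM (SD, n = 3). *Cyp27a1*, the mitochondrial sterol hydroxylase that opens the alternative route, averaged 527 ± 76.8 against 458 ± 32.3 CPM (SD, n = 3), and *Cyp7b1*, which acts next on its products, 209 ± 54.5 against 252 ± 132 CPM (SD, n = 3). None of these 4 was at an unadjusted p under 0.05 with all 6 livers and no letter in the fit, and the log2 fold change of *Cyp7b1* was 0.27 with all livers and -0.19 without the second liver labelled *Tshr MKO*.

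*Cyp51* (ENSMUSG00000001467, chromosome 5, 4081145–4104746, minus strand), the lanosterol demethylase of cholesterol synthesis, had an unadjusted p under 0.05 and was the lower in livers labelled *Tshr MKO*. It had 155, 118 and 77.7 CPM in *Tshr f/f* livers and 46.1, 84.1 and 71 CPM in the others, where the lowest *Tshr f/f* value lay below the highest of the other group (log2 fold change -0.80, SE 0.31, adjusted p = 0.44). Its unadjusted p was over 0.05 in 4 of the 6 leave-one-out fits (log2 fold change -1.03 to -0.55 over the 6). *Cyp46a1* (ENSMUSG00000021259, chromosome 12, 108334381–108362234, plus strand), the cholesterol hydroxylase best known from neurons, was scarce and higher, at 0.338, 0.855 and 0.498 CPM against 3.44, 1.12 and 3.11 CPM without overlap (log2 fold change 2.16, SE 0.55, adjusted p = 0.334). Its log2 fold change was 1.88 to 2.59 with a liver left out, at an unadjusted p under 0.05 in 6 of 6 fits. *Cyp39a1*, an oxysterol hydroxylase, averaged 23.2 ± 6.34 against 16.8 ± 4.46 CPM (SD, n = 3).

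Among the remaining groups, *Cyp20a1*, a P450 with no settled substrate, was lower without overlap, at 6.63, 7.88 and 7.86 CPM in *Tshr f/f* livers and 4.61, 5.69 and 5.34 CPM in the livers labelled *Tshr MKO* (log2 fold change -0.52, SE 0.17, adjusted p = 0.387), and it was at an unadjusted p under 0.05 in 3 of 6 leave-one-out fits. *Cyp21a1*, the steroid hydroxylase of the adrenal cortex, was at trace level, 0.812, 0.551 and 0.664 CPM against 0.838, 2.12 and 6.09 CPM, and its difference came largely from the third liver labelled *Tshr MKO*: the log2 fold change was 2.15 (SE 0.71) with it and 1.13 without it. *Cyp17a1*, which makes androgen precursors, averaged 90.2 ± 63.1 against 51.1 ± 23.7 CPM (SD, n = 3), and its log2 fold change of -0.82 was -0.12 without the first *Tshr f/f* liver and -1.19 (unadjusted p 0.0424) without the second. The retinoic acid-degrading enzyme gene *Cyp26a1* was at 0.305, 1.87 and 0.299 CPM and 1.76, 1.29 and 1.24 CPM (log2 fold change 0.77, and 2.23 at an unadjusted p of 0.00194 without the second *Tshr f/f* liver), and *Cyp27b1*, which activates vitamin D, had at most 8 counts in a liver.

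**Figure D3:**
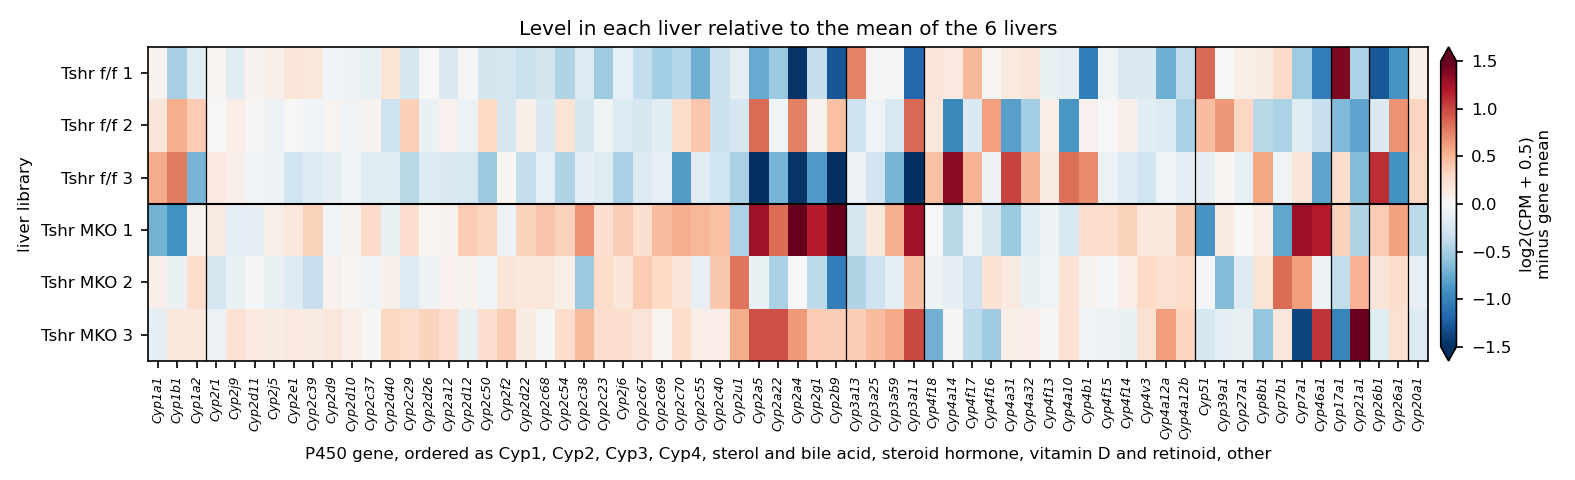
Level of each tested P450 gene (horizontal axis, by group) in each liver (rows, the 3 *Tshr f/f* livers above the line) as log2(CPM + 0.5) minus the mean over the 6 livers, with colours that end at ± 1.5. *Cyp3a11* and *Cyp2a5* are low in the first and the third *Tshr f/f* livers but not in the second, whereas *Cyp4a14* and *Cyp4a10* are high in the third and low in the second.

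Lists that cross these groups were described in the same way. Of 9 genes of the pericentral zone, among them *Cyp2e1*, *Cyp1a2* and *Cyp3a11*, 9 had a positive log2 fold change (median 0.32) and 0 were at an unadjusted p under 0.05. Without the second *Tshr f/f* liver 6 of these 9 were higher at that limit (median 0.59), against 6.35% of all genes in that fit. Without the third 8 of 9 were positive with a median of 0.14 and 0 at that limit. Without the first liver labelled *Tshr MKO* 8 of 9 were positive. These values were not particular to the zone, since the 1 periportal gene, *Cyp2f2*, also had a log2 fold change of 0.32. Most of the pericentral genes are Cyp2 genes, of which 30 of 33 tested were positive (median 0.40). All 5 genes known to be higher in male than in female mouse liver had a positive log2 fold change (median 0.66). Of these, 2 (*Cyp4a12a* and *Cyp4a12b*) were at an unadjusted p under 0.05, where 5.27% of all genes were higher. Without the second liver labelled *Tshr MKO* 4 of 5 were positive (median 0.43). Of 10 female-biased genes 5 were tested, 4 with a positive log2 fold change, and 2 (*Cyp2c40* and *Cyp2c69*) were higher at an unadjusted p under 0.05, against the same 5.27%. Of the 5 CAR or PXR targets 4 were tested, each with a positive log2 fold change (median 0.40) and none at an unadjusted p under 0.05. The sum of 7 acute-phase genes, which differed between livers as given above, was 41894, 6679 and 13632 CPM in *Tshr f/f* livers and 5158, 5635 and 7572 CPM in those labelled *Tshr MKO*, and its part in the P450 differences was not tested. Without the first *Tshr f/f* liver, 31 of 35 tested Cyp2 genes were positive (median 0.32), 5 at an unadjusted p under 0.05. In that fit 1643 of all 15624 genes passed in either direction.

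The partners and regulators of P450 enzymes, 39 genes listed with earlier results known, had 36 members tested in liver. At an unadjusted p under 0.05, 5 of 36 were higher and 3 lower, against 794 (5.27%) and 780 (5.18%) of all 15062 genes. A negative log2 fold change was found for 16 of 20 receptors and factors. It was positive for 7 of 9 electron donor and haem genes and 6 of 7 other genes of oxysterol and bile acid synthesis. *Por*, the electron donor of microsomal P450 enzymes, was lower, 564, 549 and 516 CPM in *Tshr f/f* livers against 427, 231 and 419.5 CPM in the livers labelled *Tshr MKO* (log2 fold change -0.60, SE 0.23, adjusted p = 0.445). The mitochondrial donor *Fdx1* was higher, 26.6, 33 and 26.1 CPM against 47.3, 36.9 and 39.3 CPM (log2 fold change 0.53, SE 0.14, adjusted p = 0.334), as was *Cyb5a* (log2 fold change 0.34), the cytochrome that supports many P450 reactions. All 3 had groups that did not overlap. Of the 36 genes, 8 were higher and 4 lower without overlap, where 9.6% and 7.74% of all genes were. *Nr1i3*, which encodes CAR, was higher, 212, 250.3 and 204 CPM against 325, 422 and 283 CPM (log2 fold change 0.63, SE 0.17, adjusted p = 0.334). *Srebf2*, the factor that drives cholesterol synthesis genes such as *Cyp51*, was lower, 90.5, 76.2 and 61.2 CPM against 44.6, 56.8 and 48 CPM (log2 fold change -0.61, SE 0.16, adjusted p = 0.334), and so was *Foxa2* (log2 fold change -0.72). Of the bile acid enzymes outside the P450 family *Amacr* (0.34) and *Akr1c6* (0.35) were higher on the log2 scale. *Nr1i2* (PXR) and *Ppara* were not at that limit, with log2 fold changes of -0.20 and -0.32.

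In BMDMs few P450 genes were expressed, and those at the lowest p-values split by direction between the genotypes. Of the 21 tested, 11 had a positive log2 fold change (52.4%, against 50.8% of all 15372 genes tested), and the median was 0.15 against 0.0083 over all genes. With edgeR, 0 of 21 had an adjusted p under 0.05, as did 0% of all genes. At an unadjusted p under 0.05, 4 were higher in MKO BMDMs (*Cyp27a1*, *Cyp2j9*, *Cyp2s1* and *Cyp4f18*, 19.0%, against 7.73% of all genes) and 3 were lower (*Cyp1b1*, *Cyp26b1* and *Cyp4v3*, 14.3%, against 10.2%). With a fold change of at least 2 in addition, the same 4 were higher (19.0%, against 3.3% of all genes) and *Cyp26b1* was lower (4.76%, against 5.52% of all genes). Groups did not overlap for 7 genes that were higher (33.3%, against 14.8% of all genes) and 3 that were lower (14.3%, against 14% of all genes). DESeq2 put *Cyp1b1* and *Cyp4f18* at an adjusted p under 0.05 (8.33% of 24 with an adjusted p, against 6.93% of all genes), and these 2 were also at an unadjusted p under 0.05 in 6 of 6 leave-one-out fits with edgeR. The 7 acute-phase genes summed to 3044, 7479 and 16794 CPM in the f/f libraries and 881, 569 and 1378 CPM in the MKO libraries. The groups did not overlap, and the third f/f library was the highest. *Lyz2*, whose promoter drives Cre in MKO mice, was higher in all 3 MKO libraries. The 5 macrophage markers, *Lyz2* included, summed to 14187, 15940 and 14492 CPM in f/f and 21725, 19640 and 28774 CPM in MKO libraries. The part of acute-phase or macrophage genes in the P450 values was not tested.

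**Figure D4:**
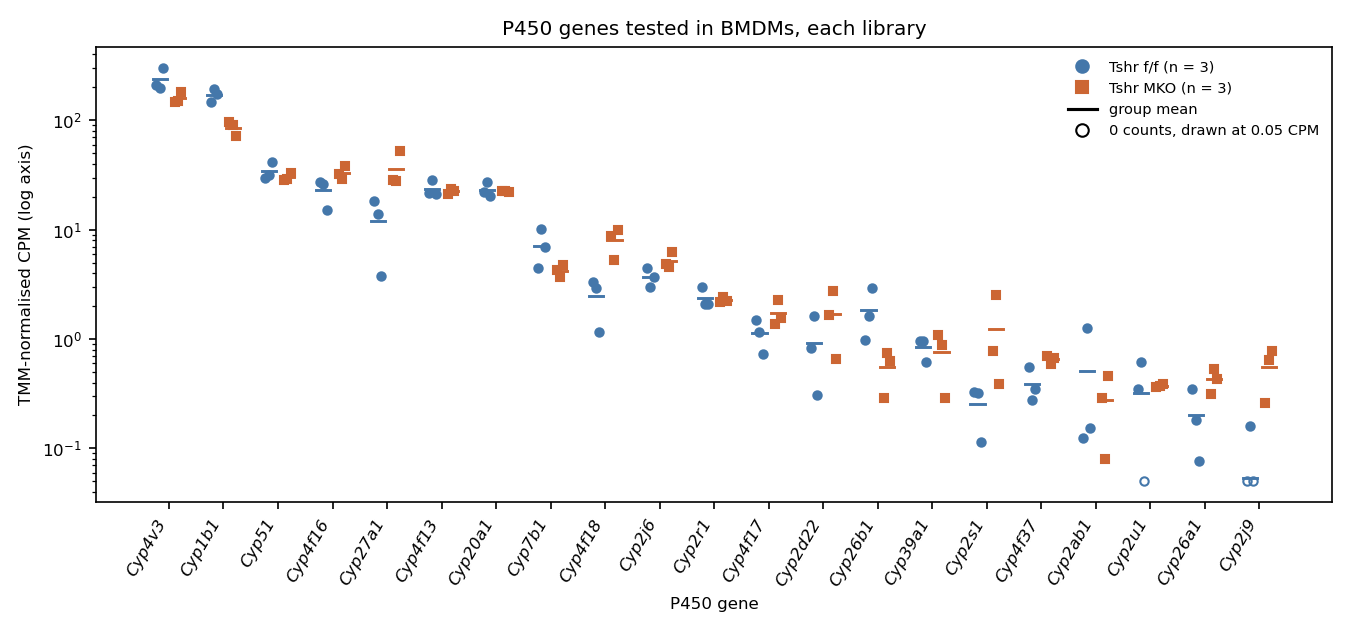
TMM-normalised CPM (vertical log axis) of the 21 P450 genes tested in BMDMs (horizontal axis) in each library, with a line at each group mean and open symbols for 0 counts, drawn at 0.05 CPM. *Tshr MKO* libraries (squares) lie below all *Tshr f/f* libraries (circles) for *Cyp4v3*, *Cyp1b1* and *Cyp26b1*, and above them for 7 genes that include *Cyp27a1* and *Cyp4f18*.

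*Cyp1b1* (ENSMUSG00000024087, chromosome 17, 79701537–79715061, minus strand), which oxidises oestrogens and polycyclic hydrocarbons, was among the most abundant P450 genes of the macrophages per kilobase. It had 146, 194 and 174 CPM in f/f BMDMs and 96.6, 90.1 and 71.2 CPM in MKO BMDMs, without overlap (log2 fold change -0.99, SE 0.18, adjusted p = 0.218, a fold of 0.502). It was lower in 3 of 3 MKO libraries than in any f/f library, and with each library left out, the second f/f library included, the log2 fold change was -1.09 to -0.88. With all 12 libraries in the fit the unadjusted p was 0.0591. *Cyp1b1* is also known from fibroblasts, and 5 stellate or fibroblast markers summed to 642, 1456 and 610.1 CPM in f/f BMDMs and 586, 691 and 424 CPM in MKO BMDMs, with *Lrat* at 0 and *Reln* at or near 0 throughout and *Col1a1* highest in the second *Tshr f/f* library. The part of such cells in the *Cyp1b1* values was not tested. *Ahr*, whose product binds Cyp1 promoters, had 9.06, 21.5 and 27.9 CPM in f/f BMDMs and 4.8, 6.00 and 22.6 CPM in MKO BMDMs, with overlap (log2 fold change -0.80, SE 0.69, adjusted p = 0.545).

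The promoter of *Cyp1b1* is shown for the core letters to which AHR is known to bind, GCGTG on either strand, written in capitals (chr17:79715012-79715311, minus strand, RefSeq, GRCm38.p6).
Cyp1b1: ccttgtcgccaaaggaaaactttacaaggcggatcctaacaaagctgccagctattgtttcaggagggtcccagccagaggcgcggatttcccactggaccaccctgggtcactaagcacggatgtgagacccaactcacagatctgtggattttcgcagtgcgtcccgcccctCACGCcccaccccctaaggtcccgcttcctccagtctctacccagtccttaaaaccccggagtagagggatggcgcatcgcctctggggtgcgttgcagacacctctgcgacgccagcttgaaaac
These letters were found in 32.4% of all 32851 promoters of the same length. They were found for 17 (21.8%) of the 78 P450 genes with a promoter, among them *Cyp1a1*, *Cyp51* and *Cyp4v3*. The first share is over promoters and the second over genes. A match is a description and not a site. For the other 23 P450 genes no promoter was used here.

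*Cyp4v3* was the most abundant P450 gene of BMDMs per kilobase and was lower in MKO BMDMs, 213, 198 and 303 CPM against 147, 151 and 179.9 CPM, without overlap (log2 fold change -0.58, SE 0.21, adjusted p = 0.257). Its log2 fold change was -0.37 without the third *Tshr f/f* library, the highest, and the unadjusted p was over 0.05 without the first or the second *Tshr MKO* library. The third f/f library had a TMM factor of 0.738, against 0.993–1.11 in the other 5.

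*Cyp27a1* (ENSMUSG00000026170, chromosome 1, 74713574–74737892, plus strand), which in macrophages turns cholesterol into oxysterols that can leave the cell, was higher in MKO BMDMs, 18.4, 13.9 and 3.76 CPM against 28.5, 27.7 and 52.3 CPM, without overlap (log2 fold change 1.58, SE 0.58, adjusted p = 0.257). The third *Tshr f/f* library was the lowest and the third *Tshr MKO* library the highest. Without that *Tshr MKO* library the log2 fold change was 1.22 at an unadjusted p of 0.104, and without the second f/f library it was 1.69 at 0.0569. *Ch25h*, which makes another oxysterol and is no P450, went the other way, 22, 12.7 and 33.7 CPM in f/f BMDMs and 2.09, 2.24 and 1.08 CPM in MKO BMDMs (log2 fold change -3.66, SE 0.47, adjusted p = 0.218). *Cyp7b1*, which inactivates such oxysterols, had 4.42, 10.1 and 6.99 CPM and 4.28, 3.68 and 4.72 CPM (log2 fold change -0.76, SE 0.33, adjusted p = 0.288). Its log2 fold change was -0.43 without the second f/f library and -0.99 (unadjusted p 0.0132) without the first, and DESeq2 gave an unadjusted p of 0.0401. *Cyp51* had 29.9, 31.3 and 41.9 CPM and 28.7, 29.3 and 32.9 CPM, and both genes had overlapping groups.

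*Cyp4f18* (ENSMUSG00000003484, chromosome 8, 71988482–72009626, minus strand) was higher in MKO BMDMs, 3.31, 2.93 and 1.15 CPM against 8.67, 5.25 and 10 CPM, without overlap (log2 fold change 1.68, SE 0.45, adjusted p = 0.218, a fold of 3.21). Its relative *Cyp4f16*, more abundant per kilobase, was at 27.1, 26.2 and 15.2 CPM and 32.1, 28.8 and 38.5 CPM, also without overlap (log2 fold change 0.54, SE 0.25, adjusted p = 0.307), whereas *Cyp4f13* averaged 23.8 ± 4.12 against 22.4 ± 1.22 CPM (SD, n = 3). Over the 9 Cyp4f genes 5 were tested and 4 had a positive log2 fold change (median 0.62). Neutrophil markers summed to 7.26, 30.8 and 48.6 CPM in f/f BMDMs and 4.44, 4.27 and 9.64 CPM in MKO BMDMs, most of it *S100a8*, with *Ly6g* at or near 0 and *S100a9* and *Elane* under 1 CPM in every library. The part of such cells in the *Cyp4f18* values was not tested.

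The other genes at an unadjusted p under 0.05 were scarce. *Cyp26b1*, which degrades retinoic acid, had 39, 71 and 76 counts in f/f BMDMs and 11, 28 and 26 in MKO BMDMs (log2 fold change -1.72, SE 0.55, adjusted p = 0.233). *Cyp2s1*, which acts on retinoids and prostaglandin-like lipids, had 13, 14 and 3 counts and 30, 95 and 16 counts (log2 fold change 2.22, SE 0.81, adjusted p = 0.257), with most of the counts in the second *Tshr MKO* library. *Cyp2j9* had 0, 7 and 0 counts and 10, 24 and 32 counts, and its fitted log2 fold change of 3.15 depends on how counts of 0 are treated. All 3 had groups that did not overlap, and *Cyp2j9* and *Cyp2s1* were at that limit in 2 of 6 leave-one-out fits each and *Cyp26b1* in 4 of 6. Without the second MKO library the log2 fold change of *Cyp2s1* was 1.16, and without the third f/f library that of *Cyp26b1* was -1.23. *Cyp20a1* averaged 23.2 ± 3.53 against 22.3 ± 0.361 CPM (SD, n = 3) and *Cyp2r1*, a vitamin D hydroxylase, 2.38 ± 0.525 against 2.29 ± 0.124 CPM (SD, n = 3).

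The same list of partners and regulators had 25 members tested in BMDMs. At an unadjusted p under 0.05, 2 of 25 were higher and 4 lower, against 1189 (7.73%) and 1567 (10.2%) of all 15372 genes. *Cebpa* and *Rxra* were higher (log2 fold change 1.96 and 0.83), and *Cebpb* (-1.12), *Hmox1* (-1.81), *Cyb5a* (-0.69) and *Ch25h* (-3.66) were lower. *Hmox1*, the haem-degrading enzyme, had 749.9, 1472 and 3591 CPM in the f/f BMDMs and 696, 549 and 407 CPM in MKO BMDMs. The liver factors *Hnf4a* and *Nr1i2* were at 0 in every BMDM library.

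Whether the genotype difference itself differed between liver and BMDMs was tested as an interaction of genotype and tissue over the 12 libraries. Of 70 P450 genes tested 0 had an adjusted p under 0.05 (0.0058% of all 17246 genes), and 9 had an unadjusted p under 0.05 (12.9%, against 14.5% of all genes). Only 18 of the 70 were tested in both tissues. Many of the others had no count in any BMDM library and could not be called, so these shares do not compare P450 genes with all genes. With a mean of at least 50 counts in each tissue, 5 of 11 P450 genes had an unadjusted p under 0.05, against 1993 of all 10522 genes. DESeq2 put 4 at an adjusted p under 0.05, namely *Cyp2j9*, *Cyp4v3*, *Cyp2d9* and *Cyp4f18* (5.97% of 67, against 4.15% of all genes). For *Cyp4v3* the difference between the log2 fold changes, liver minus BMDM, was 1.04 (SE 0.25, adjusted p = 0.150, edgeR), with 0.46 in liver and -0.58 in BMDMs. For *Cyp4f18* it was -2.60 (SE 0.72, adjusted p = 0.196), and for *Cyp27a1* -1.79 (SE 0.65, adjusted p = 0.263). *Cyp2d9*, at 0 counts in 4 of the 6 BMDM libraries and at most 8 in the others, gives no usable value in BMDMs. *Cyp1b1* had log2 fold changes of -1.09 in liver and -0.99 in BMDMs and *Cyp2j6* 0.54 and 0.48, with interaction values of -0.13 (SE 0.76) and 0.055 (SE 0.25).

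**Figure D5:**
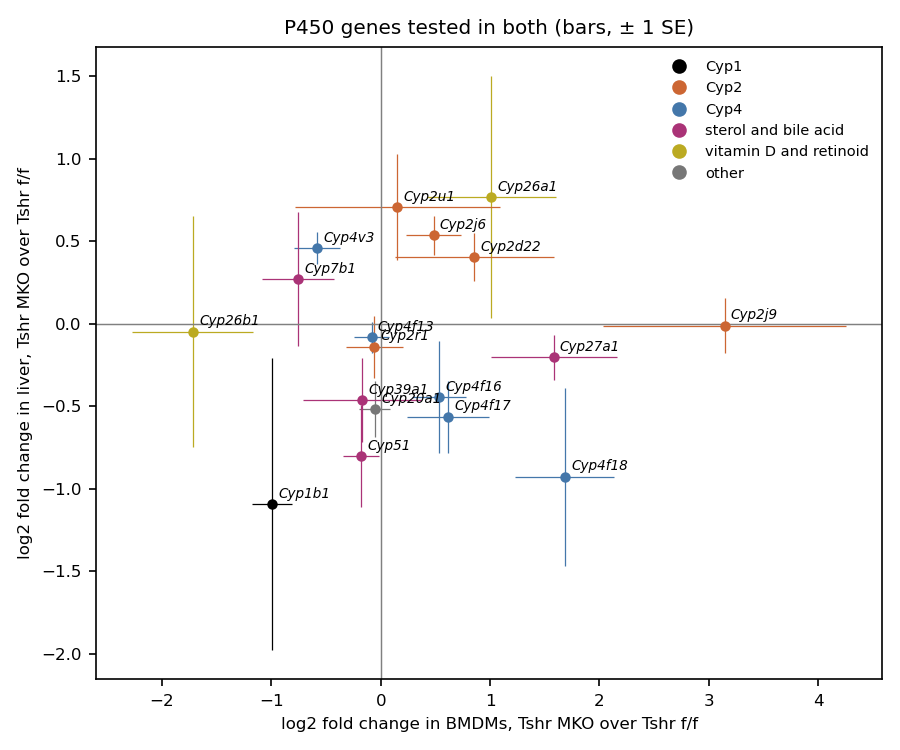
Log2 fold change in liver (vertical axis) against that in BMDMs (horizontal axis) for the 18 P450 genes tested in both, *Tshr MKO* over *Tshr f/f* by label, with bars of ± 1 SE and colours for P450 groups. *Cyp4v3* lies in the upper left (-0.58 in BMDMs, 0.46 in liver), *Cyp4f18* in the lower right (1.68 and -0.93) and *Cyp1b1* in the lower left (-0.99 and -1.09).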

How the data were processed

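Strand-specific RNA libraries were read on an Illumina NovaSeq, and the authors deposited raw read counts for each gene. The submitters' notes name FastQC 0.11.2, STAR, StringTie and mm10, without their roles, and the counting program is not given in the sources used here. Each tissue was tested with the quasi-likelihood method of edgeR 4.0.16 (R 4.3.3; TMM scaling, filterByExpr, robust fit), adjusted over all genes tested. An SE is the log2 fold change over the square root of F. MARS, the model of the study, which ignores replicate spread, was an alternative, as were DESeq2 1.42.0, other scalings and filters, the sample ID letter, a replicate block and each library left out. Scripts were tested on simulated data. The P450 genes and the lists were chosen with earlier results of these data known. Genes named are the 12 highest per kb of exon, those at an unadjusted p under 0.05 and 25 fixed ones, and a few others, such as *Cyp2b9*, *Cyp3a25*, *Cyp3a13* and untested genes, named after their values were seen. Shared 75-base stretches came from GENCODE M21 transcripts, promoters from RefSeq. Pandas 2.3.3 and matplotlib 3.10.9 were used.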

Additional observations from a re-analysis of the deposited data

Results flagged for a closer look

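For 2 of the 18 P450 genes tested in both tissues, the 3 libraries of each genotype did not overlap in either tissue and the directions were opposite. How many of all genes show this pattern was not counted. Over all genes, groups did not overlap for 9.6% (higher) and 7.74% (lower) in liver and for 14.8% and 14% in BMDMs. For *Cyp4v3* the log2 fold change was 0.46 in liver and -0.58 in BMDMs, and the interaction of genotype and tissue was 1.04 (SE 0.25, adjusted p = 0.150, edgeR). For *Cyp4f18* the log2 fold change was -0.93 in liver and 1.68 in BMDMs, with an interaction of -2.60 (SE 0.72, adjusted p = 0.196). In liver this gene was scarce and its difference did not pass an unadjusted p of 0.05 with edgeR. With each liver left out that p was 0.113 to 0.273, under 0.05 in 0 of 6 fits. With the letter of the sample ID in the fit the liver value of *Cyp4f18* was -1.42 (unadjusted p 0.0392). Neither interaction passed an adjusted p of 0.05 with edgeR and both did with DESeq2. Liver directions follow the labels.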

How the results depend on the processing

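Of the alternatives to a log2 fold change of a named gene, 484 in liver and 204 in BMDMs kept the direction and the side of an unadjusted p of 0.05 or stayed within 1 SE, 44 and 17 no longer passed, 32 and 8 passed in addition, 6 and 4 moved by over 1 SE, and 0 reversed a gene that passed. Where the counts below moved, the cause was not tested. In liver the counts of P450 genes at an adjusted p under 0.05 were 6 with DESeq2 and 60 with MARS (0 with edgeR). MARS tested 84 P450 genes in liver. Of all 23672 genes it put 9389 at an adjusted p under 0.05 and 10797 at an unadjusted p under 0.05. MARS put 47 higher and 16 lower at an unadjusted p under 0.05, and 11 higher and 2 lower with a 2-fold change in addition, and it ignores replicate spread by construction. With all 12 libraries in the fit 9 were higher at an unadjusted p under 0.05, and with the sample ID letter 1 was lower with a 2-fold change. In the fit of all 12 libraries 1225 of all 17246 genes passed that p in either direction. With each liver left out, 10 to 22 were higher and 1 to 4 lower at an unadjusted p under 0.05. With a 2-fold change 1 to 7 were higher and 0 to 2 lower. The 22, 7 and 2 came without the second *Tshr f/f* liver. At the unadjusted p, 1077 of 15552 to 2129 of 15291 of all genes passed in either direction, the most without that same liver. In BMDMs DESeq2 put 2 at an adjusted p under 0.05, 5 lower at an unadjusted p under 0.05 and 2 lower with a 2-fold change. Of all 25135 genes it put 3416 at that unadjusted p. MARS tested 36 P450 genes there and put 22 at an adjusted p under 0.05. It had 16 higher and 7 lower at the unadjusted p, and 11 and 3 with a 2-fold change. Of all 25179 genes MARS put 13223 at an adjusted and 14108 at an unadjusted p under 0.05. RLE scaling and all 12 libraries put 2 lower with a 2-fold change. With a mean of at least 50 counts, which leaves 13 P450 genes, 2 were higher by each rule and 0 lower with a 2-fold change. Of all 12536 genes in that fit 2462 were at an unadjusted p under 0.05. With each BMDM library left out 2 to 4 were higher by each rule, 1 to 4 lower at an unadjusted p under 0.05 and 0 to 2 with a 2-fold change. At that unadjusted p, 1295 of 15884 to 3982 of 15654 of all genes passed in these fits in either direction. Shares of all genes with a 2-fold change were not counted in the leave-one-out fits. The interaction had 4 genes at an adjusted p under 0.05 with DESeq2 and 0 to 3 with a library left out (3 without the second *Tshr f/f* BMDM library, *Cyp2d9*, *Cyp2j9* and *Cyp4v3*). Without that library 341 of all 17699 genes had such an adjusted p, against 1 of 17246 with all libraries. *Cyp2d9* gives no usable value in BMDMs. With a mean of at least 50 counts in each tissue, 5 of 11 P450 genes were at an unadjusted p under 0.05, against 1993 of all 10522 genes. MARS moved the median of all genes in BMDMs to 0.14. For each gene the deviation of a library from the mean of its group was taken. Between *Tshr f/f* and *Tshr MKO* libraries of the same number these deviations correlated at -0.066, 0.25 and -0.029 in liver. In BMDMs they correlated at 0.14, 0.027 and 0.11. Pairs of other numbers lay between -0.34 and 0.35 in liver and between -0.21 and 0.16 in BMDMs. The numbers were therefore not taken to pair the libraries. With a replicate block 13 P450 genes were higher and 2 lower in liver and 4 and 3 in BMDMs at an unadjusted p under 0.05, and 7 in the interaction. Over all genes 1227 of 15062, 2435 of 15372 and 2252 of 17246 passed in these fits, in the same order.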

Other observations

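Some P450 genes below the filter still had counts, and they are named here after their values were seen. *Cyp11a1*, the side-chain cleavage enzyme that begins steroid synthesis, had 19, 4 and 4 counts in f/f BMDMs and 41, 5 and 6 in MKO BMDMs, so that the first library of each genotype held most of them. *Cyp27b1*, which activates vitamin D, had 10, 5 and 20 counts in f/f BMDMs and 0, 0 and 5 in MKO BMDMs. In liver *Cyp2s1* had 0, 6 and 20 counts in *Tshr f/f* livers and 7, 38 and 0 in the livers labelled *Tshr MKO*.

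Other letters were searched on both strands of the P450 promoters. AGGTCA, which many nuclear receptors bind, was found for 21 of 78 P450 genes (26.9%, against 16.3% of all promoters), among them *Cyp3a11*, *Cyp2c29* and *Cyp2a5*. Here a P450 gene counts once, whereas the share of all is over promoters, so the 2 shares differ in kind. Related genes count separately. TCACCCCA, the core bound by sterol-regulated factors, was found in 2 of 78, *Cyp2a4* and *Cyp2a5* (2.56%, against 1.56% of all promoters). TTGCGCAA, bound by C/EBP factors, and TTATGTAA, bound by factors of the D-box, were found in 0 of 78 (0.183% and 0.938% of all promoters), which says only that these letters are not in these windows.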
